A study of Mus musculus with 24 samples.

Results

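MyoD, a muscle-determining transcription factor, was given by lentivirus to mouse embryonic fibroblasts (MEFs) and to P19 cells. The comparison described here is the difference between its effects in these cells: the log2 change from untransduced to MyoD-carrying MEFs minus the same change in P19 cells, one value per gene. It rests on the 12 arrays of batch 1 of a series of 24 Affymetrix mouse arrays. They were chosen by the cell, virus and batch in the sample titles and form 4 groups of 3 arrays: MEFs with MyoD, untransduced MEFs, P19 cells with MyoD and untransduced P19 cells. A positive difference means a larger rise or a smaller fall in MEFs, and a negative one a larger rise or a smaller fall in P19 cells.

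All MEFs, controls included, came from Myod-/-/Myf5-/- mice and so lacked both of the genes that usually start the muscle programme, and were kept in DMEM with 10% FBS. P19 is a mouse embryonal carcinoma line with a pluripotent character, kept in MEMα, and its own Myod1 and Myf5 genes are not described as altered. Cells were infected in the presence of polybrene at 8 µg/ml, and the medium was renewed after 24 hours. MEFs with MyoD were placed at 48 hours in differentiation medium with 1% horse serum, 10 µg/ml insulin and 10 µg/ml transferrin, and were harvested 36 to 40 hours later. P19 cells with MyoD were harvested at 72 hours, and no such change of medium is described for them. The sources used here give neither the promoter of the virus, nor a virus without MyoD, nor the harvest time of the untransduced cells. Cell type, medium, length of exposure and amount of MyoD therefore cannot be told apart in the difference. The sample characteristics of the MyoD groups in both cell types speak of neuronal differentiation, so groups were read from the titles.

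MyoD is a basic helix-loop-helix protein that binds short DNA elements called E-boxes together with a partner E protein. In cells of the mesenchymal lineage it can start the skeletal muscle programme. It switches on Myog and Mef2 factors, which act with it on the genes of fusion, the sarcomere, excitation and the neuromuscular junction, while the cell leaves the cell cycle. Fibroblasts are the classic recipients of this conversion. P19 cells can form neurons, muscle and other tissues under suitable inducers.

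The arrays of 11 samples were alike in distribution, with lower quartiles of 4.50 to 4.55 and upper quartiles of 8.25 to 8.33 on the log2 scale. P19 control replicate 2 stood apart, with quartiles of 4.79 and 7.63, a mean BioB spike-in signal of 6.71 against 7.76 to 8.19, and a mean correlation across probe sets with its own group of 0.919. In the 3 other groups that correlation rounded to 0.998 for every array. Results below are given for all 12 arrays and, where it matters, for the 11 without this array. With 11 arrays many more effects are called in both cells, and a gene without a called effect in 1 fit may have one in the other. The labels do not say whether the replicates were separate cultures, so p-values measure the spread between these samples, which may be technical. Precision is limited by the number of arrays.

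The cells carried the markers of their labels. All 6 fibroblast markers (Col1a1, Col1a2, Pdgfrb, Thy1, Prrx1, Twist2) lay above 7.03, the median of all gene values, in both MEF groups, and their mean level was 11.07 to 11.16 in MEFs with MyoD, against 12.65 to 12.71 in untransduced MEFs. All 6 embryonal carcinoma markers (Pou5f1, Sox2, Nanog, Lin28a, Utf1, Tdgf1) lay above that median in both P19 groups, where their mean level was 11.25 to 11.39 with MyoD and 10.79 to 11.73 without. The 5 skeletal muscle markers (Tnnt3, Mymk, Acta1, Myog, Ckm) averaged 13.15 to 13.23 in MEFs with MyoD, against 5.18 to 5.41 in untransduced MEFs. In P19 cells they averaged 6.46 to 6.50 with MyoD and 5.70 to 6.15 without. The 5 neuron markers averaged 5.13 to 5.30 in MEFs with MyoD, against 4.92 to 5.03 in untransduced MEFs, and 7.45 to 7.49 in P19 cells with MyoD, against 6.69 to 7.67 in untransduced P19 cells. Markers of endothelium, macrophages and heart averaged below 5.40 in every array but P19 control replicate 2, where they averaged 5.72, 6.05 and 6.76.

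Myod1, the transduced gene, read 12.86, 12.67 and 12.67 in MEFs with MyoD, against 7.21, 7.18 and 7.14 in untransduced MEFs. Myod1 in P19 cells read 9.74, 9.58 and 9.66 with MyoD, against 5.95, 5.40 and 5.82 without. Untransduced MEFs gave a signal although their own gene is disrupted, and whether this probe set lies in the disrupted part was not examined. The MyoD groups stood clear of their controls in both cells, and the MEFs with MyoD also stood clear of the P19 cells with MyoD. The rise in MEFs exceeded that in P19 cells by 1.61 ± 0.20 on the log2 scale (SE, n = 3 arrays per group, limma adjusted p = 2.22e-04). A second Myod1 probe set averaged 3.77, 3.72, 3.63 and 3.54 in these 4 groups, below the lower quartile of all values, and says nothing either way. In bulk RNA, fewer transduced cells and less transcript per cell cannot be told apart, for Myod1 and for every gene below. Myf5, the other gene disrupted in the MEFs, read 9.23, 9.62 and 9.61 in MEFs with MyoD and 9.93, 10.15 and 10.12 in untransduced MEFs, and its probe set likewise checks nothing if it lies outside the disrupted part. Its difference between the effects was -0.13 (limma adjusted p = 0.819).

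Of 18193 genes, 878 had a higher difference (4.83% of those tested) and 1658 a lower one (9.11%) at a limma adjusted p under 0.05, the threshold for every call below. Without P19 control replicate 2 the counts were 3659 and 3945, or 20.1% and 21.7% (41.8% either way, against 13.9% with 12 arrays), and all 2536 genes called with 12 arrays were called the same way. Leaving out instead an array of either MEF group or of P19 cells with MyoD kept 1834 to 1941 of the 2536 calls. Higher differences made up 34.6% of the calls with 12 arrays and 48.1% with 11. The median difference over all genes was 0.01. Large differences were more often higher than lower: 80 genes were called with a difference of at least 4 log2 units, and 14 with one of -4 or below. Of these, 54 and 0 were members of the 8 muscle lists used below, which hold 225 of the 18193 genes.

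Taken separately, MEFs had 1514 genes that rose with MyoD (8.32%) and 2090 that fell (11.5%), or 19.8% either way, while P19 cells had 190 that rose (1.04%) and 90 that fell (0.495%), or 1.54% either way. With all 12 arrays, most of the genes with a called difference changed in the MEFs without a call in P19 cells. Among the 878 higher ones, 718 rose in MEFs only, 57 rose in both cells, 14 rose in MEFs and fell in P19 cells, 28 fell in P19 cells only, 2 fell in both and 59 were called in neither cell. Among the 1658 lower ones, 1428 fell in MEFs only, 52 rose in P19 cells only, 26 fell in MEFs and rose in P19 cells, 13 fell in both, 4 rose in both and 135 were called in neither. Without P19 control replicate 2 the P19 counts were 973 risen (5.35%) and 1240 fallen (6.82%), or 12.2% either way, and the MEF counts 4139 (22.8%) and 4817 (26.5%), or 49.2% either way. The patterns shifted with them. Among the higher differences 2584 genes then rose in MEFs only, 262 rose in both, 251 rose in MEFs and fell in P19 cells and 281 fell in P19 cells only. Among the lower ones 2980 fell in MEFs only, 193 rose in P19 cells only, 289 fell in MEFs and rose in P19 cells and 347 fell in both. Of the 718 genes 560 kept their pattern, and of the 1428 genes 1172 did.

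**Figure D1:**
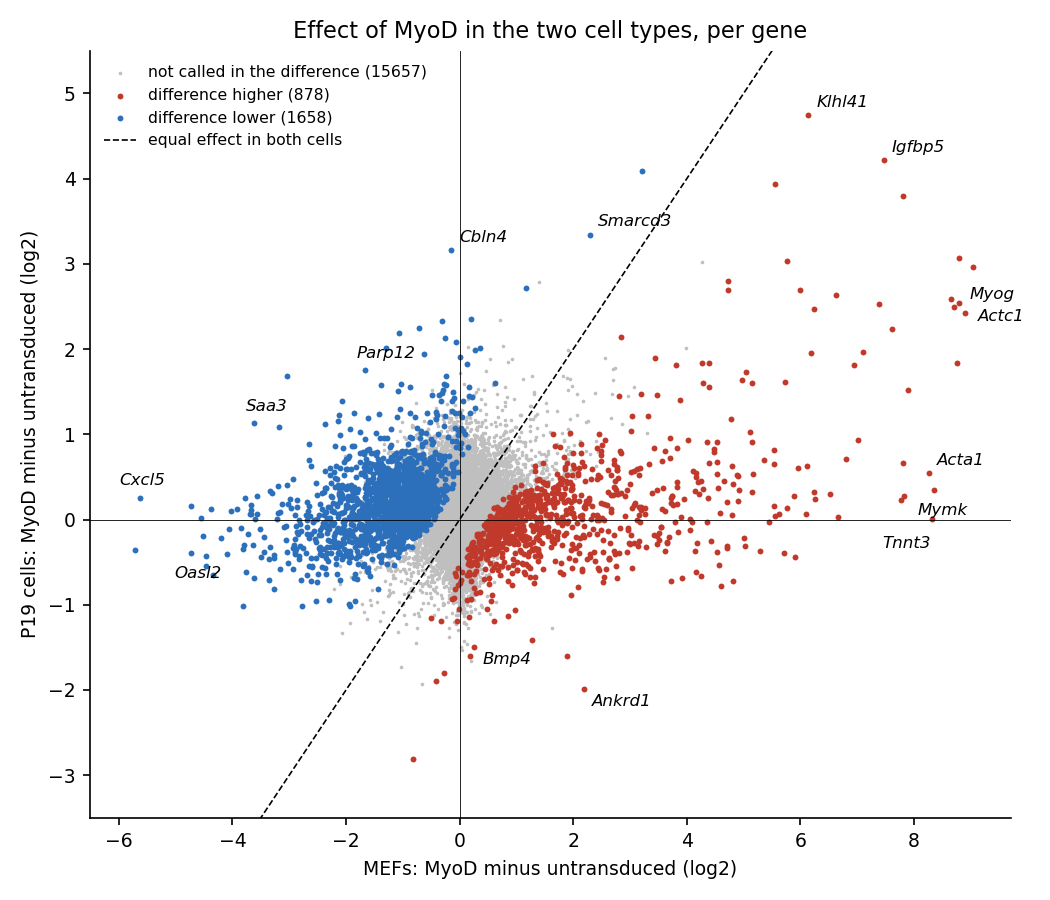
The MyoD effect in MEFs (horizontal axis, log2) is plotted against that in P19 cells (vertical axis, log2) for 18193 genes, with the 878 genes of a called higher difference in red, the 1658 lower ones in blue and the others in grey. The dashed line marks equal effects, and the red genes beyond 6 on the horizontal axis spread from near 0 (Tnnt3, Mymk, Acta1) to above 4 (Klhl41, Igfbp5) on the vertical one.

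Genes that rose in MEFs only, by the calls with 12 arrays, were mostly not among the lowest signals in untransduced P19 cells. Of the 718 such genes, 105 (14.6%) lay below 5.02, the lower quartile of all gene values, in untransduced P19 cells, against 20.9% of all genes. That quartile is not a limit of detection, so a gene above it may still be silent. Ckm, for example, averaged 6.27 in untransduced P19 cells and 5.94 in untransduced MEFs. The P19 mean includes control replicate 2. In 102 of the 718 (14.2%) the untransduced P19 cells were already at or above the level of the MEFs with MyoD. The median gene of the 718 read 9.10 in MEFs with MyoD, 6.91 in untransduced MEFs, 7.31 in P19 cells with MyoD and 7.26 in untransduced P19 cells. Among the 1428 genes that fell in MEFs only, 148 (10.4%) lay below the lower quartile in untransduced P19 cells, and in 213 (14.9%) those cells were at or above the untransduced MEFs.

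Of all genes, 4.83% had a higher difference and 9.11% a lower one, or 20.1% and 21.7% with 11 arrays. In MEFs 8.32% rose and 11.5% fell, or 22.8% and 26.5% with 11 arrays. In P19 cells these shares were 1.04% and 0.495%, or 5.35% and 6.82%. They are the background for the counts of every list below. Across 8 lists of muscle genes, 135 of the 225 measured genes rose in MEFs. Of these 135 genes, 35 also rose in P19 cells, 98 were not called there and 2 fell, and without P19 control replicate 2 the counts were 67, 61 and 7. The difference was called higher for 121 of the 135, lower for 1, and not called for 13. The effect in P19 cells was a median of 9.36% of the effect in MEFs on the log2 scale, with quartiles of -3.98% and 30.5%. These 135 genes were picked by their rise in MEFs, which in itself favours a higher difference and a small share. The share ran from -91.4% to 146%, the highest being that of Smarcd3.

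**Figure D2:**
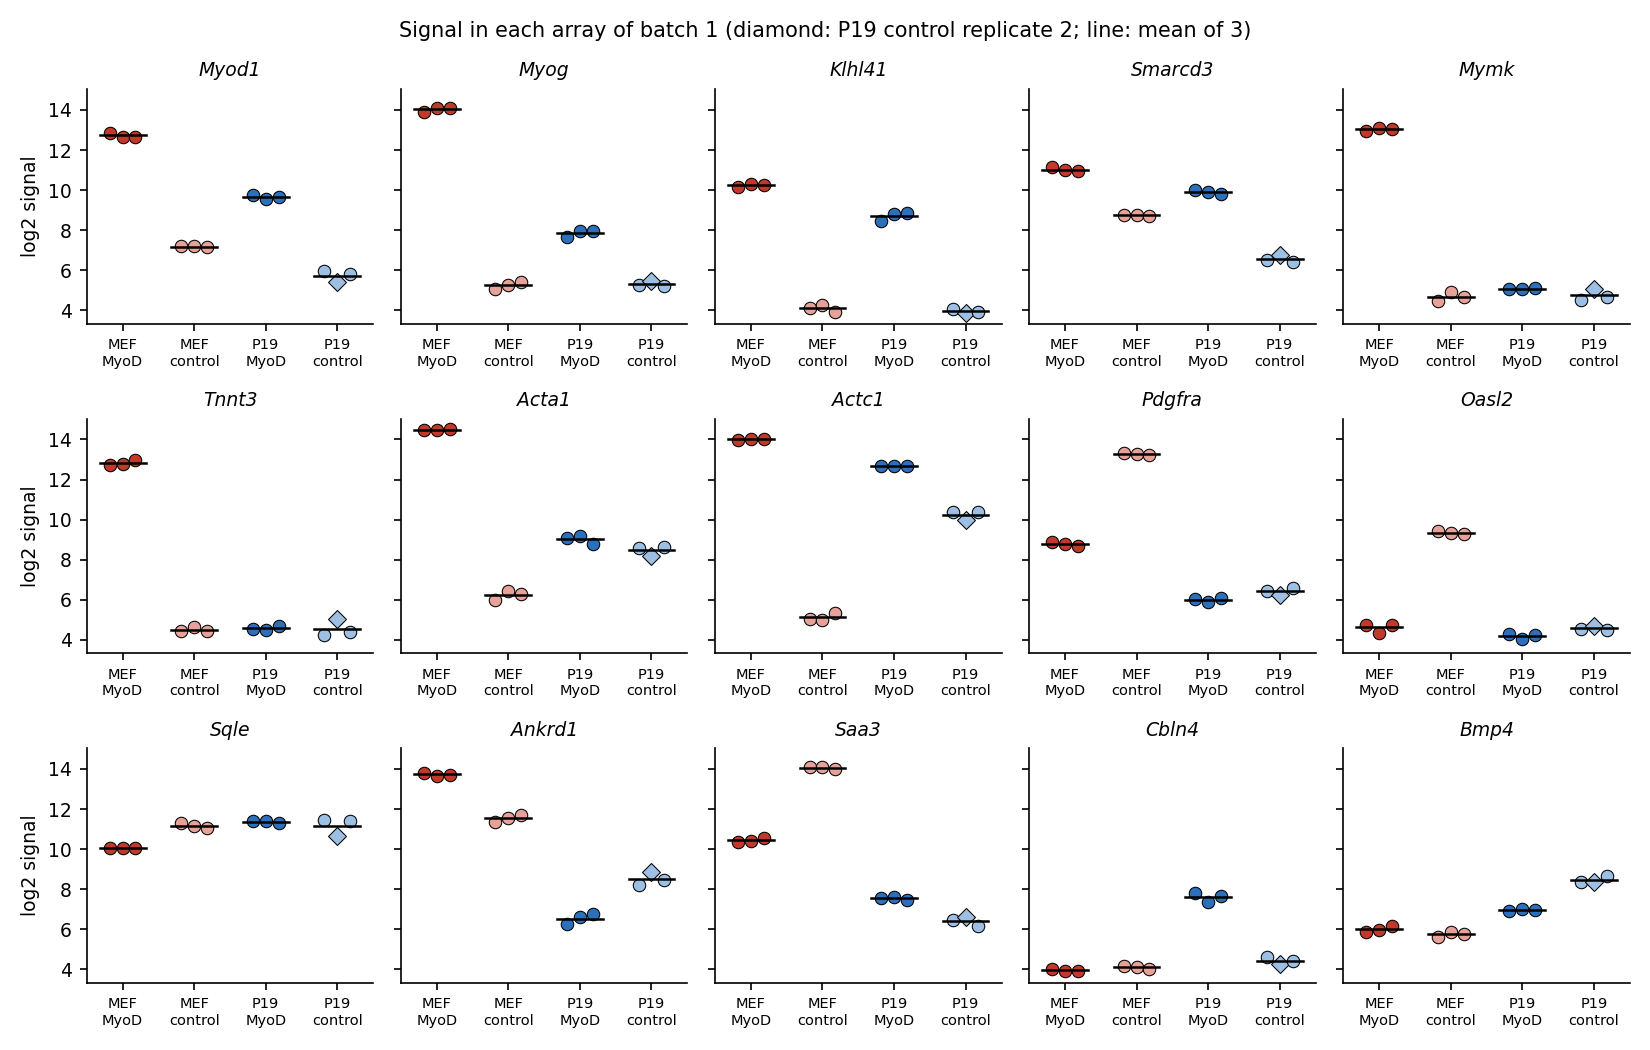
Each panel gives the log2 signal of a gene in every array of batch 1, with MEFs in red and P19 cells in blue, MyoD in the dark shade and untransduced cells in the light one, diamonds for P19 control replicate 2 and lines for the mean of 3 arrays. Myog and Klhl41 are high in both MyoD groups, Mymk and Tnnt3 only in MEFs with MyoD, Oasl2 only in untransduced MEFs, and Cbln4 only in P19 cells with MyoD.

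The 3 genes with the largest differences among those named were Tnnt3, Mymk and Acta1. Tnnt3, the fast troponin T of the thin filament, read 12.72, 12.79 and 12.96 in MEFs with MyoD, against 4.44, 4.63 and 4.46 in untransduced MEFs. Tnnt3 in P19 cells read 4.54, 4.49 and 4.66 with MyoD, against 4.25, 5.02 and 4.41 without. The MEF groups stood far apart, and the P19 groups overlapped at a level below the lower quartile of all values. The difference was 8.31 ± 0.25 (SE, limma adjusted p = 4.94e-09).

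Mymk, the membrane protein myomaker that lets myoblasts fuse, read 12.97, 13.09 and 13.03 in MEFs with MyoD, against 4.48, 4.89 and 4.68 in untransduced MEFs. Mymk in P19 cells read 5.07, 5.08 and 5.10 with MyoD, against 4.51, 5.07 and 4.64 without. Its difference was 8.00 ± 0.22 (limma adjusted p = 3.61e-09), and the P19 readings touched each other near the lower quartile. Acta1, the skeletal muscle actin, read 14.47, 14.46 and 14.52 in MEFs with MyoD, against 5.96, 6.43 and 6.27 in untransduced MEFs. Acta1 in P19 cells read 9.08, 9.16 and 8.80 with MyoD, against 8.59, 8.17 and 8.65 without. Unlike the others, Acta1 was above the median of all gene values in untransduced P19 cells, and its P19 effect of 0.54 was not called (limma adjusted p = 0.20). Its difference was 7.72 ± 0.23 (adjusted p = 4.94e-09).

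Among the genes that passed the filters for naming, those that followed in size were all of muscle. They were Tmem182, a membrane protein of muscle, at 7.55 ± 0.13, Mymx, the small fusion protein myomixer, at 7.53 ± 0.14, and Mybph, a myosin-binding protein, at 7.13 ± 0.31. Tnni1, the slow troponin I, at 6.93 ± 0.26, Myom2, an M-band protein, at 6.64 ± 0.19, Actc1, the actin of heart and embryonic muscle, at 6.47 ± 0.20, and Myl4, an embryonic myosin light chain, at 6.37 ± 0.18 completed the set of the 10 largest (SE, n = 3 per group). Limma adjusted p-values lay between 2.05e-10 for Tmem182 and 8.12e-08 for Mybph. Of the 10, Tnni1, Actc1 and Myl4 also rose in P19 cells, by 1.84, 2.42 and 1.52. With 11 arrays Mybph, Mymk, Mymx and Tmem182 were called risen there too, by 0.99, 0.51, 0.31 and 0.26 (limma adjusted p = 7.15e-06, 0.00414, 0.00676 and 0.0289).

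The myogenic regulators varied. Of 30 measured, 11 had a higher difference and 4 a lower one (median 0.58), and 16 rose in MEFs while 8 rose in P19 cells. With 11 arrays 17 had a higher difference and 4 a lower one, and 16 rose in P19 cells, against 19 in MEFs. Myog, the factor that carries the programme after MyoD, read 13.91, 14.10 and 14.08 in MEFs with MyoD, against 5.04, 5.25 and 5.42 in untransduced MEFs. Myog in P19 cells read 7.66, 7.94 and 7.96 with MyoD, against 5.24, 5.47 and 5.21 without. Myog rose in both cells, with no overlap in either, and P19 cells with MyoD remained far below MEFs with MyoD. Its difference was 6.25 ± 0.20 (limma adjusted p = 6.17e-09).

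Klhl41, a kelch protein that stabilises the sarcomere, rose strongly in both cells. It read 10.13, 10.31 and 10.25 in MEFs with MyoD, against 4.11, 4.27 and 3.91 in untransduced MEFs. Klhl41 in P19 cells read 8.43, 8.80 and 8.83 with MyoD, against 4.08, 3.86 and 3.89 without. The untransduced cells of both kinds started at about the same signal, and the P19 rise of 4.75 was 77.4% of the MEF rise of 6.13 on the log2 scale. The difference of 1.39 ± 0.20 was called (limma adjusted p = 7.02e-04).

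Smarcd3 went the other way. It encodes BAF60c, a subunit of the SWI/SNF chromatin remodeller that is known to act with MyoD. Smarcd3 read 11.15, 10.98 and 10.94 in MEFs with MyoD, against 8.74, 8.78 and 8.68 in untransduced MEFs. P19 readings of Smarcd3 were 10.01, 9.88 and 9.82 with MyoD, against 6.51, 6.74 and 6.43 without. The rise was larger in P19 cells, which started lower, and the difference was -1.05 ± 0.16 (limma adjusted p = 1.11e-03). Among the 135 muscle-list genes that rose in MEFs it was the only one with a called lower difference.

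Other regulators lay in between. Mef2c, a partner of MyoD, rose by 4.28 in MEFs and 1.61 in P19 cells, a difference of 2.67 ± 0.47 (limma adjusted p = 2.72e-03) that was 3.18 without P19 control replicate 2. Rbm24, an RNA-binding splicing factor of muscle, read 11.37, 11.50 and 11.45 in MEFs with MyoD, against 5.34, 5.34 and 5.08 in untransduced MEFs. P19 readings of Rbm24 were 10.95, 10.93 and 11.11 with MyoD, against 9.48, 8.10 and 9.53 without. The end levels lay close together, while the starting level was higher in P19 cells, and the difference was 4.23 ± 0.43 (adjusted p = 5.18e-05). Vgll2, a cofactor of TEAD factors in muscle, had a difference of 3.64 ± 0.20 with a P19 effect of 0.18 that was not called. Klhl40, a relative of Klhl41, had one of 4.78 ± 0.73 with all arrays and 3.95 without P19 control replicate 2, which read 8.00 against 5.64 and 5.39 in the other controls. Myf6, a late muscle factor, stayed below the lower quartile in all 4 groups, with a difference of 0.17 (adjusted p = 0.515).

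To show the DNA next to genes that responded in both cells and genes that responded in MEFs only, promoter sequence from RefSeq (mouse build GRCm38.p6, 250 bases before to 50 bases after the start of the gene, written 5′ to 3′ on the gene's strand) is given for Myog, Klhl41, Chrna1 and Smarcd3, which rose in both, and for Acta1 and Ckm, which rose in MEFs without a called P19 effect in either fit. Capitals mark every E-box CANNTG.
Myog, chr1:134289754-134290053, plus strand: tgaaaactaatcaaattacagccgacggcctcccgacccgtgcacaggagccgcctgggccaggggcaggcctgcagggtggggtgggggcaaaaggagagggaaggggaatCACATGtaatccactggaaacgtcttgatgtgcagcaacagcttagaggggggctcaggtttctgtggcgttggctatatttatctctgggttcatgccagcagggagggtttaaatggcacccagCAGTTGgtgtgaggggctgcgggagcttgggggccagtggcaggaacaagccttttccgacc
Klhl41, chr2:69669870-69670169, plus strand: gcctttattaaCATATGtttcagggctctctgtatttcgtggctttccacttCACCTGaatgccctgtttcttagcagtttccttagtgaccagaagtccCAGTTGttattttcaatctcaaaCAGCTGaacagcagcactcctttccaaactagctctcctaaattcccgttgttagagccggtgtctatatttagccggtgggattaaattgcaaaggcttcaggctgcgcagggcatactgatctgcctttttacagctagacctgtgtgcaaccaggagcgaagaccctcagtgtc
Chrna1, chr2:73580289-73580588, minus strand: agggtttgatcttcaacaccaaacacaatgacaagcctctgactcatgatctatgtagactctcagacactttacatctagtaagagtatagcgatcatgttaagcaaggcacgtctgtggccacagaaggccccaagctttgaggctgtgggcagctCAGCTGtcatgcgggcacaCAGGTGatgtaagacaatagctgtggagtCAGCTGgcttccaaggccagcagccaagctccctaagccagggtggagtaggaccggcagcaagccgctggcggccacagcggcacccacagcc
Smarcd3, chr5:24601953-24602252, minus strand: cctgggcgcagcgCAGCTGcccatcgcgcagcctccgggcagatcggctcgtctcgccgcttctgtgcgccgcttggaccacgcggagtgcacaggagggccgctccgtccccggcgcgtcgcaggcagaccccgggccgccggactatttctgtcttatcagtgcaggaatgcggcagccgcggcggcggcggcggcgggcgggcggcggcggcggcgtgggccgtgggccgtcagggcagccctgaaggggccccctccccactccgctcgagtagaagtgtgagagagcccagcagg
Acta1, chr8:123894726-123895025, minus strand: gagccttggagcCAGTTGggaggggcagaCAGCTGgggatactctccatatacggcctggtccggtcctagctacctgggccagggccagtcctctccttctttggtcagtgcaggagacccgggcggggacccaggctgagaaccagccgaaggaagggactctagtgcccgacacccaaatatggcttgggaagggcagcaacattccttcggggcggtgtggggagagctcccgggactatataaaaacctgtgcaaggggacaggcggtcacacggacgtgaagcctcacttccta
Ckm, chr7:19410844-19411143, plus strand: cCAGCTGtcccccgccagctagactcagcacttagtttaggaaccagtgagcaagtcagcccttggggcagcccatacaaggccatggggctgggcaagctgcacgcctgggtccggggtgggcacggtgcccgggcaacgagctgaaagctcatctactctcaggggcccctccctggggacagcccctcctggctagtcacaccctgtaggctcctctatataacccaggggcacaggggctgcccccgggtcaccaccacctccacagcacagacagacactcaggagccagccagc

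The Myog window holds 2 E-boxes and none of them is CAGCTG, the letters MyoD and its partners are known to favour. The Klhl41 window holds 4, of which 1 is CAGCTG, and the Chrna1 window 3, of which 2 are. The Smarcd3 and Ckm windows hold 1 E-box each, a CAGCTG, and the Acta1 window 2, of which 1 is. CAGCTG, which reads alike on both strands, was present in 30 of 75 windows (40.0%) of genes that rose in both cells. It was present in 127 of 564 windows (22.5%) of genes that rose in MEFs only with a called difference, and in 184 of 1127 (16.3%) of genes that fell in MEFs only. Of all 14452 matched genes on the arrays, 16.1% held it. The related CAGGTG, on either strand, was present in 28.0%, 21.3% and 15.6% of the same sets, against 19.7% of all matched genes. These are descriptions of letters in a short window and say nothing of binding, and Mymk, Tnnt3 and Mymx had no entry in the table.

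**Figure D3:**
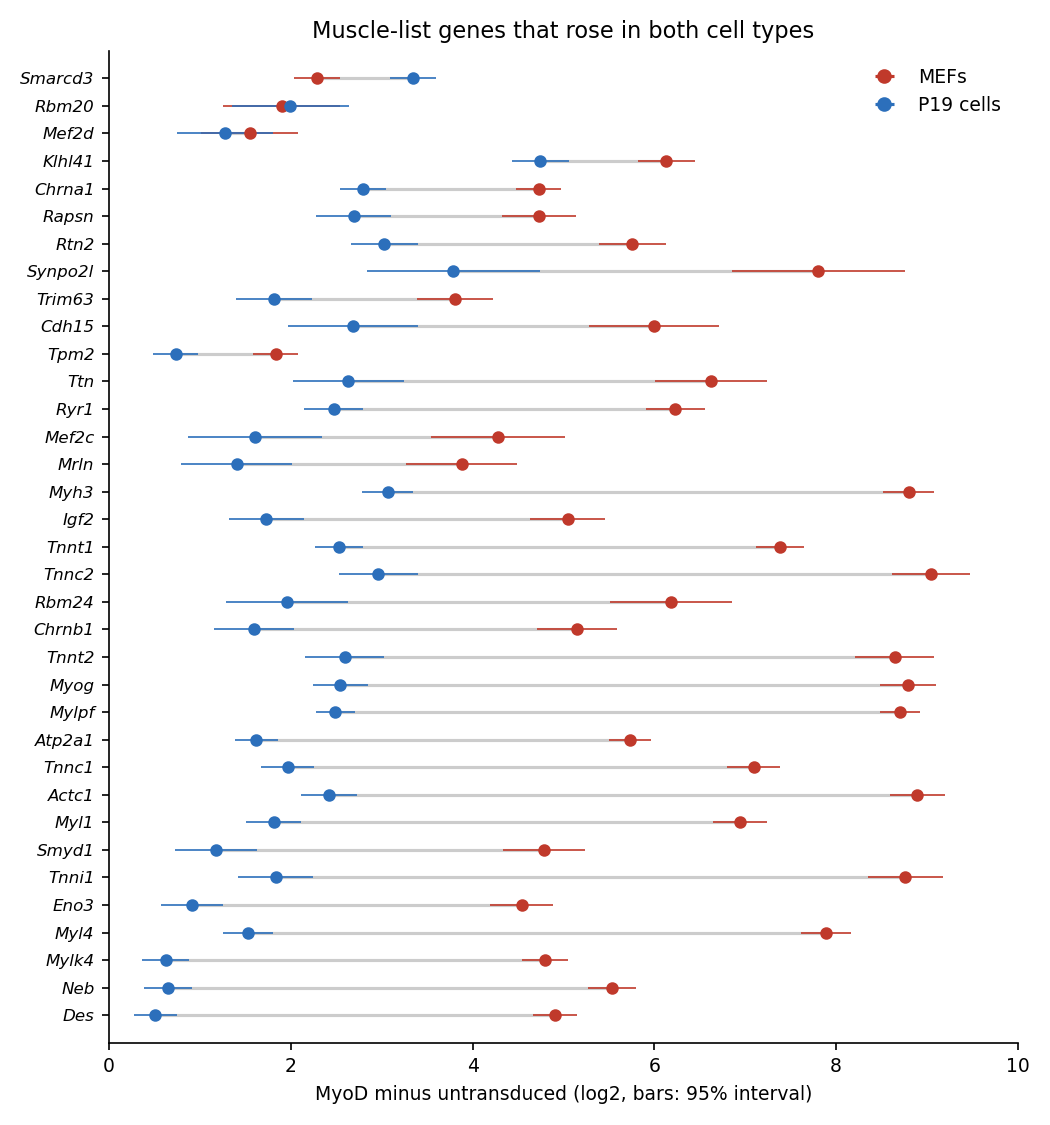
For the 35 muscle-list genes that rose in both cell types with 12 arrays, red points give the MyoD effect in MEFs and blue points that in P19 cells (log2, bars are 95% intervals), ordered by the ratio of the effects. Smarcd3 is the one gene with a called larger rise in P19 cells, and at the bottom Des, Neb and Mylk4 rose by less than 1 in P19 cells and by more than 4 in MEFs.

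Fusion and myoblast surface genes were divided. Of 29 measured, 7 had a higher difference and 9 a lower one, with a median of 0.25, beside 4.83% and 9.11% of all genes. With 11 arrays the counts were 13 and 10, beside 20.1% and 21.7%. The fusion proteins Mymk and Mymx and the membrane protein Tmem182 had differences above 7, with P19 effects of 0.34, 0.23 and 0.28 that were called with 11 arrays alone. Cdh15, the M-cadherin of myoblasts, read 11.71, 11.51 and 11.52 in MEFs with MyoD, against 5.37, 5.75 and 5.64 in untransduced MEFs. P19 readings of Cdh15 were 9.12, 8.96 and 8.92 with MyoD, against 5.86, 7.30 and 5.78 without. It rose in both cells without overlap, with a difference of 3.31 ± 0.46 (limma adjusted p = 5.41e-04). Met, the receptor for hepatocyte growth factor, and Cdon, a cell adhesion receptor of myoblasts, rose in P19 cells by 1.39 each and were not called in MEFs, where they differed by -0.33 and -0.14. Both were singled out after their values were seen. With 11 arrays their P19 rises were 1.03 and 1.0, and Met was called fallen in MEFs (limma adjusted p = 0.000638). Their differences were -1.73 ± 0.34 (adjusted p = 5.78e-03) and -1.52 ± 0.37 (adjusted p = 0.0191). The Cdon call was lost when MEF control replicate 1 or 2, or replicate 2 of MEFs with MyoD, was left out.

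The sarcomere genes had differences mostly in 1 direction. Of 23 thin filament and troponin genes, 18 had a higher difference and 0 a lower one, with a median of 3.90, while all genes had a median of 0.01. In P19 cells 8 of them rose and 0 fell, and without P19 control replicate 2 the counts were 9 and 3. Tnnc2, the fast troponin C, which binds calcium, had effects of 9.05 in MEFs and 2.96 in P19 cells, and its difference was 6.08 ± 0.28. Tnnt2, the troponin T of heart and embryonic muscle, read 14.18, 14.17 and 14.22 in MEFs with MyoD, against 5.39, 5.46 and 5.78 in untransduced MEFs. P19 readings of Tnnt2 were 7.15, 7.12 and 6.51 with MyoD, against 4.19, 4.67 and 4.14 without, and its difference was 6.05 ± 0.28 (limma adjusted p = 1.06e-07).

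Some thin filament genes were high in P19 cells before MyoD. Actc1 read 13.96, 14.04 and 14.03 in MEFs with MyoD, against 5.01, 5.01 and 5.32 in untransduced MEFs. P19 readings of Actc1 were 12.68, 12.68 and 12.66 with MyoD, against 10.39, 9.96 and 10.40 without. It rose without overlap in both cells, by 8.90 in MEFs and 2.42 in P19 cells, and the untransduced P19 cells already read far above the untransduced MEFs. Tnnt1, the slow troponin T, singled out after its values were seen, ended at nearly the same signal in both cells, at 12.43, 12.41 and 12.38 in MEFs with MyoD and 12.40, 12.28 and 12.27 in P19 cells with MyoD. Untransduced cells read 4.99, 5.05 and 5.03 in MEFs and 9.88, 9.52 and 9.95 in P19 cells, and the difference was 4.85 ± 0.17.

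Of 29 thick filament and M-band genes, 16 had a higher difference and 0 a lower one (median 2.00), with 17 risen in MEFs and 7 in P19 cells, or 20 and 12 with 11 arrays. Myh3, the embryonic myosin heavy chain, read 13.06, 13.16 and 13.04 in MEFs with MyoD, against 4.07, 4.33 and 4.45 in untransduced MEFs. P19 readings of Myh3 were 7.85, 7.94 and 8.13 with MyoD, against 4.93, 4.79 and 5.02 without. It rose clearly in both cells, and the difference was 5.74 ± 0.18 (limma adjusted p = 6.49e-09). Mylpf, the fast myosin light chain, rose by 8.71 in MEFs and 2.49 in P19 cells. Ttn, the giant elastic protein titin, rose by 6.62 and 2.63, with a difference of 3.99 ± 0.39. The Ttn probe set can match several transcripts, and the brightest of 4 without that limit gave a difference of 0.278 (adjusted p = 0.459), so that the call did not hold there. The other 3, all below the median of all gene values in P19 cells, gave 0.53, 0.641 and 3.21, the last with effects of 3.24 in MEFs and 0.03 in P19 cells.

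The Z disc and costamere, which anchor the filaments, had 24 of 38 genes higher and 1 lower (median 1.77). Here 26 genes rose in MEFs, while 2 rose and 2 fell in P19 cells, or 10 and 5 with 11 arrays. Ldb3, a PDZ and LIM protein of the Z disc, Myoz2, a calcineurin-binding protein there, and Itgb1bp2, the integrin-binding melusin, had differences of 5.92 ± 0.17, 5.56 ± 0.22 and 5.48 ± 0.20. Their P19 effects of 0.32, 0.06 and -0.03 were not called, but that of Ldb3 was with 11 arrays (0.42, limma adjusted p = 0.0034). Itga7, the laminin-binding integrin of muscle, had a difference of 5.39 ± 0.70 and one of 4.59 without P19 control replicate 2, which read 7.78 against 5.30 and 5.46. Des, the muscle intermediate filament desmin, read 11.99, 11.93 and 12.08 in MEFs with MyoD, against 7.09, 7.05 and 7.14 in untransduced MEFs. P19 readings of Des were 8.27, 8.01 and 7.99 with MyoD, against 7.67, 7.56 and 7.51 without, a small rise of 0.51 (limma adjusted p = 0.0475) beside a MEF rise of 4.90. The difference for Des was 4.39 ± 0.15. Synpo2l, a Z-disc protein singled out after its values were seen, rose by 7.80 in MEFs and 3.79 in P19 cells. Its probe set can match several transcripts, and without such probe sets its difference was 0.332 and was not called (limma adjusted p = 0.456), against 4.02 here.

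Genes of excitation and the calcium store followed the sarcomere, with 20 of 28 higher and 1 lower (median 2.60). Of these 28, 21 rose in MEFs and 4 in P19 cells, or 10 in P19 cells without control replicate 2. Srl, the sarcalumenin of the reticulum, Casq2, the calcium buffer calsequestrin, Cacna1s, the voltage sensor of the muscle calcium channel, and Stac3, its adaptor, had differences of 6.09 ± 0.50, 6.02 ± 0.16, 5.65 ± 0.43 and 5.64 ± 0.28. Their P19 effects of 0.93, 0.24, -0.37 and 0.13 were not called, but with 11 arrays Casq2 and Stac3 were called risen, by 0.32 and 0.43 (limma adjusted p = 0.0202 and 0.00034). Ryr1, the calcium release channel that opens in step with Cacna1s, rose in both, by 6.23 in MEFs and 2.47 in P19 cells. Rtn2, a reticulum-shaping protein, rose by 5.76 in MEFs and 3.03 in P19 cells. Ryr1 and Rtn2 were singled out after their values were seen.

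At the neuromuscular junction, 8 of 16 genes had a higher difference and 3 a lower one (median 1.35). Chrng, the fetal subunit of the acetylcholine receptor, read 12.36, 12.22 and 12.30 in MEFs with MyoD, against 5.75, 5.96 and 5.60 in untransduced MEFs. P19 readings of Chrng were 6.23, 6.24 and 6.46 with MyoD, against 5.86, 6.57 and 5.59 without, and overlapped, though with 11 arrays the effect of 0.58 was called (limma adjusted p = 0.00409). The alpha subunit Chrna1 behaved otherwise, at 9.37, 9.49 and 9.43 in MEFs with MyoD, against 4.65, 4.68 and 4.77 in untransduced MEFs. P19 readings of Chrna1 were 7.53, 7.57 and 7.52 with MyoD, against 4.57, 4.96 and 4.71 without. It rose in both cells from about the same signal, and the difference was 1.93 ± 0.16 (limma adjusted p = 1.07e-05), against 6.23 ± 0.30 for Chrng (adjusted p = 1.39e-07). Chrnd, the delta subunit, Erbb3, a neuregulin receptor, and Lrp4, the agrin receptor, had differences of 4.0 ± 0.19, 5.62 ± 0.43 and 3.74 ± 0.45 without a called P19 effect in either fit.

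Musk, the kinase that pairs with Lrp4, was singled out after its values were seen. Musk read 5.8, 5.92 and 5.96 in MEFs with MyoD, against 5.67, 5.66 and 5.55 in untransduced MEFs. In P19 cells Musk read 7.92, 7.27 and 8.17 with MyoD, against 5.72, 6.01 and 5.67 without. The P19 groups did not overlap, the rise there was 1.99, and the difference was -1.72 ± 0.28 (limma adjusted p = 1.62e-03). With Cdon and Met it was one of 3 genes of the muscle lists that rose in P19 cells and not in MEFs with 12 arrays, and with 11 there were 9.

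Muscle energy enzymes had 18 of 32 genes higher and 0 lower (median 1.42), with 21 risen in MEFs and 1 in P19 cells, or 24 and 7 with 11 arrays. Ckm, the muscle creatine kinase, read 11.68, 11.68 and 11.56 in MEFs with MyoD, against 5.98, 5.83 and 5.99 in untransduced MEFs. P19 readings of Ckm were 5.96, 5.85 and 5.81 with MyoD, against 5.93, 7.0 and 5.87 without. The P19 groups overlapped apart from the high reading of control replicate 2, and the difference was 6.10 ± 0.34 (limma adjusted p = 5.05e-07), or 5.73 without that array. Cox8b, a muscle form of a cytochrome oxidase subunit, Pgam2, the muscle phosphoglycerate mutase, and Mb, the oxygen-binding myoglobin, had differences of 6.34 ± 0.48, 5.04 ± 0.47 and 4.69 ± 0.53. In all 3 the same control array read more than 1 unit above its companions, and without it the differences were 5.81, 4.52 and 4.10, and Mb was called risen in P19 cells, by 0.81 (limma adjusted p = 5.16e-05).

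**Figure D4:**
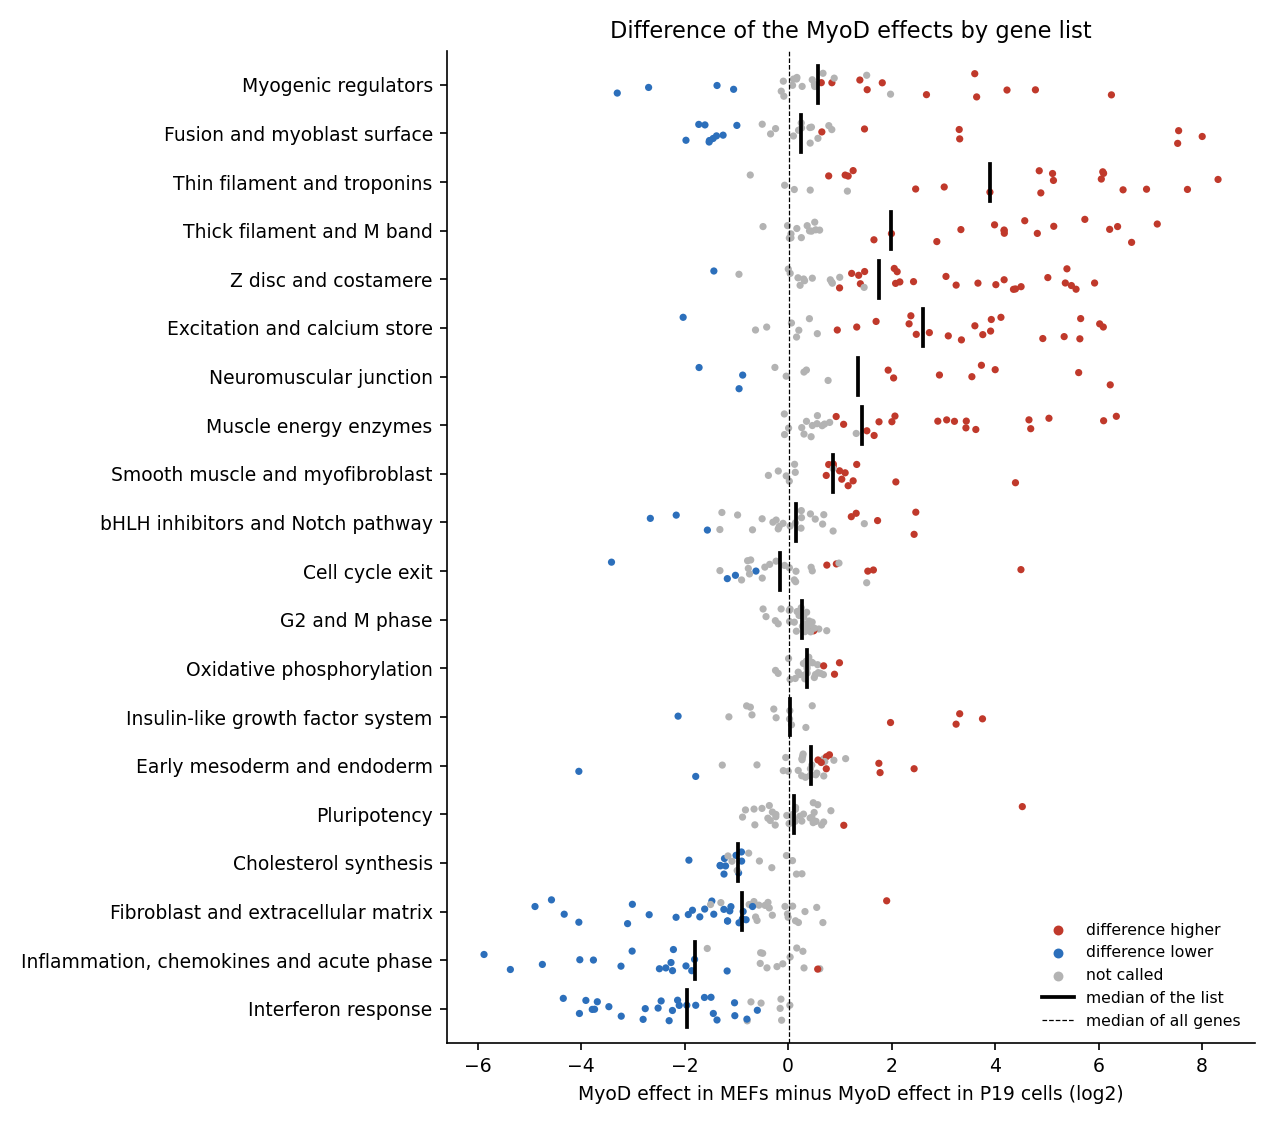
The difference between the MyoD effects (log2, horizontal axis) is shown for every measured gene of 20 lists, with called higher genes in red, called lower genes in blue and the rest in grey. Black bars give the median of each list, from 3.90 for the thin filament to -1.96 for the interferon response, and the dashed line the median of all genes at 0.01.

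Genes of antiviral defence and inflammation, high in untransduced MEFs, had mostly lower differences. Of 33 interferon response genes, 0 had a higher difference and 26 a lower one (median -1.96), and 29 fell in MEFs while 0 fell and 1 rose in P19 cells, or 30 in MEFs and 3 and 1 in P19 cells with 11 arrays. Their median level was 6.67 in MEFs with MyoD and 9.28 in untransduced MEFs, against 5.56 and 5.86 in P19 cells with and without MyoD. Oasl2, an antiviral protein of the oligoadenylate synthetase family, read 4.74, 4.36 and 4.75 in MEFs with MyoD, against 9.44, 9.33 and 9.28 in untransduced MEFs. P19 readings of Oasl2 were 4.29, 4.05 and 4.22 with MyoD, against 4.56, 4.69 and 4.48 without. MEFs with MyoD thus read about as low as the P19 cells, all below the lower quartile of all values. The difference was -4.35 ± 0.19 (limma adjusted p = 6.17e-08). Rtp4, an interferon-induced chaperone, and the guanylate-binding proteins Gbp3 and Gbp2 had differences of -4.50 ± 0.22, -4.03 ± 0.18 and -3.91 ± 0.26.

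Inflammation, chemokine and acute phase genes had 1 of 29 higher and 16 lower (median -1.81), or 4 and 19 with 11 arrays. In P19 cells 0 fell with 12 arrays and 7 with 11. Cxcl5, a chemokine that draws neutrophils, had the lowest difference of the genes named. It read 5.45, 5.64 and 5.70 in MEFs with MyoD, against 11.28, 11.32 and 11.05 in untransduced MEFs. P19 readings of Cxcl5 were 4.60, 4.80 and 4.44 with MyoD, against 4.53, 4.11 and 4.43 without, below the lower quartile of all values. The difference was -5.88 ± 0.21 (limma adjusted p = 1.61e-08). Lcn2, an iron-binding protein of the acute phase, and C1s1, a complement protease, had differences of -5.37 ± 0.27 and -4.03 ± 0.45, and neither had a called P19 effect in either fit.

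Matrix genes fell in MEFs as well. Of 45 fibroblast and extracellular matrix genes, 1 had a higher difference and 24 a lower one (median -0.89), with 34 fallen in MEFs and 5 in P19 cells. With 11 arrays 40 fell in MEFs and 24 in P19 cells, and 5 had a higher and 30 a lower difference. Pdgfra, a receptor for platelet-derived growth factor, read 8.90, 8.77 and 8.70 in MEFs with MyoD, against 13.30, 13.26 and 13.22 in untransduced MEFs. P19 readings of Pdgfra were 6.01, 5.89 and 6.08 with MyoD, against 6.45, 6.23 and 6.58 without. The P19 groups did not overlap, and their effect of -0.43 was not called with 12 arrays (limma adjusted p = 0.141) but was with 11, at -0.52 (adjusted p = 0.000753). The Pdgfra difference was -4.05 ± 0.16 (adjusted p = 3.96e-08). Col11a1, a cartilage collagen, Mmp3, a matrix protease, and Tgfbi, a secreted adhesion protein, had differences of -4.89 ± 0.38, -4.57 ± 0.20 and -4.33 ± 0.24.

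Median levels of the matrix list were 11.30 in MEFs with MyoD and 12.62 in untransduced MEFs, against 6.38 and 6.85 in P19 cells with and without MyoD. Col1a1, the main fibrillar collagen, fell in both cells, by 2.08 in MEFs and 1.33 in P19 cells, and its difference of -0.75 was not called (limma adjusted p = 0.194). Without P19 control replicate 2 that difference was -0.99 (adjusted p = 6.50e-03). Among the 10 lowest, Pxylp1, a phosphatase of proteoglycan synthesis, and Csgalnact1, a chondroitin synthesis enzyme, had low readings in that array. Their differences of -4.71 ± 0.81 and -4.27 ± 0.69 were -3.79 and -3.49 without it, with calls in both fits.

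Cholesterol synthesis genes had mostly lower differences. Of 20 genes, 0 had a higher difference and 10 a lower one (median -0.97), with 13 fallen in MEFs and 1 in P19 cells, or 18 and 3 with 11 arrays. Median levels were 9.42 in MEFs with MyoD and 10.18 in untransduced MEFs, against 9.19 and 9.02 in P19 cells with and without MyoD. Sqle, the squalene epoxidase, read 10.06, 10.07 and 10.07 in MEFs with MyoD, against 11.31, 11.15 and 11.05 in untransduced MEFs. P19 readings of Sqle were 11.40, 11.42 and 11.31 with MyoD, against 11.46, 10.63 and 11.42 without. The MEF groups were apart and the P19 groups overlapped, with a difference of -1.31 ± 0.27 (limma adjusted p = 7.22e-03), or -1.04 without the low P19 control. Sc5d, a late enzyme of the pathway, had -1.92 ± 0.46, or -1.40 without it. Over the list, 15 genes were lower and 2 higher without that array.

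Of 16 measured genes of the insulin-like growth factor system, 4 had a higher difference and 1 a lower one, beside 4.83% and 9.11% of all genes. With 11 arrays the counts were 7 and 6, beside 20.1% and 21.7%. Igf2, the fetal growth factor, read 12.13, 11.93 and 11.86 in MEFs with MyoD, against 6.47, 7.28 and 7.03 in untransduced MEFs. P19 readings of Igf2 were 12.23, 12.10 and 12.03 with MyoD, against 10.54, 10.23 and 10.39 without. The MyoD groups ended at overlapping levels, while the untransduced MEFs read lower than the untransduced P19 cells, and the difference was 3.32 ± 0.26 (limma adjusted p = 7.95e-06). Igfbp5, the binding protein of muscle, read 13.24, 13.17 and 13.19 in MEFs with MyoD, against 5.70, 5.94 and 5.57 in untransduced MEFs. P19 readings of Igfbp5 were 10.28, 10.23 and 10.02 with MyoD, against 6.49, 4.93 and 6.47 without. Its P19 rise was 4.22, and the difference was 3.25 ± 0.47 (adjusted p = 7.50e-04), or 3.76 without the low control. Igf1 rose in MEFs alone in both fits, by 3.51, with a difference of 3.76 ± 0.19, and Igfbp6 fell there by 2.04, with a difference of -2.13 ± 0.24.

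Notch pathway genes and inhibitors of basic helix-loop-helix factors had 5 of 29 higher and 3 lower (median 0.14), beside 4.83% and 9.11% of all genes. With 11 arrays the counts were 10 and 9, beside 20.1% and 21.7%. In P19 cells 3 rose with 12 arrays and 14 with 11, beside 1.04% and 5.35%. Dll1, a Notch ligand, read 10.34, 10.29 and 10.33 in MEFs with MyoD, against 5.96, 6.14 and 6.04 in untransduced MEFs. P19 readings of Dll1 were 9.51, 9.39 and 9.48 with MyoD, against 7.55, 7.88 and 7.44 without. It rose in both without overlap, and the difference was 2.43 ± 0.17 (limma adjusted p = 3.30e-06). Hes6, which favours differentiation, rose by 3.20 in MEFs and 1.47 in P19 cells, with a difference of 1.73 ± 0.19. The receptor Notch1 had a difference of 2.47 ± 0.19 and a P19 effect of 0.55 that was called with 11 arrays alone (0.58, adjusted p = 0.00508). Hey1, a Notch target, rose by 0.81 and 1.11, and its difference of -0.29 was not called with 12 arrays (adjusted p = 0.485) but was with 11, at -0.48 (adjusted p = 0.0495).

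The Id proteins, which hold back MyoD by binding its partners, differed from each other. Id1 rose in MEFs by 1.88, with a P19 effect of 0.66 that was called with 11 arrays alone and a difference of 1.22 ± 0.21 (limma adjusted p = 2.71e-03). Id3 had a difference of 0.52 (adjusted p = 0.330), which was called without P19 control replicate 2 (0.85, adjusted p = 2.28e-05). Id4 fell in MEFs by 1.42 and was higher by 1.24 in P19 cells without a call, or by 0.74 with one for 11 arrays (adjusted p = 2.08e-05), with a difference of -2.66 ± 0.45 (adjusted p = 2.09e-03). Hic1, a repressor of fibroblasts and progenitors, had one of -2.16 ± 0.17.

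Cell cycle exit genes went both ways. Of the 28 genes of that list, 9 rose and 6 fell in MEFs, beside 8.32% and 11.5% of all genes. In the difference 5 were higher and 4 lower, beside 4.83% and 9.11%. With 11 arrays 11 were higher and 10 lower, beside 20.1% and 21.7%. Cdkn1c, the inhibitor p57, read 10.37, 10.39 and 10.29 in MEFs with MyoD, against 5.99, 5.70 and 5.62 in untransduced MEFs. P19 readings of Cdkn1c were 6.55, 6.66 and 6.42 with MyoD, against 6.51, 6.64 and 6.24 without, and overlapped. The difference was 4.50 ± 0.19 (limma adjusted p = 6.44e-08). Cdkn1a, the inhibitor p21, had a difference of 1.54 ± 0.17 and a P19 effect of 0.30 that was called with 11 arrays alone (0.41, adjusted p = 0.00173). Mycn, a growth-promoting factor, had one of 1.65 ± 0.28, which was 0.988 and not called (adjusted p = 0.123) against the P19 controls of batch 3. Its other probe sets gave differences of only 0.013 and 0.433. Ccnd1, cyclin D1, had one of -0.90 that was not called (adjusted p = 0.126) but was without P19 control replicate 2 (-0.53, adjusted p = 1.46e-03).

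With all 12 arrays, 40 genes moved in opposite ways in the cells with a called difference, 14 of them up in MEFs and 26 down there. With 11 arrays all 40 kept this pattern, among 251 and 289. Ankrd1, a stress-responsive ankyrin protein of heart and muscle, read 13.79, 13.67 and 13.72 in MEFs with MyoD, against 11.36, 11.56 and 11.71 in untransduced MEFs. P19 readings of Ankrd1 were 6.25, 6.59 and 6.73 with MyoD, against 8.22, 8.88 and 8.45 without. It rose by 2.18 in MEFs and fell by 1.99 in P19 cells, with a difference of 4.17 ± 0.26 (limma adjusted p = 9.67e-07). Dusp14, a phosphatase of MAP kinases, rose by 1.89 in MEFs and fell by 1.60 in P19 cells, a difference of 3.48 ± 0.21.

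The others named went down in MEFs and up in P19 cells. Saa3, an acute phase protein, read 10.35, 10.42 and 10.58 in MEFs with MyoD, against 14.11, 14.11 and 13.99 in untransduced MEFs. P19 readings of Saa3 were 7.56, 7.62 and 7.46 with MyoD, against 6.46, 6.60 and 6.18 without. Each pair of groups stood apart, in opposite order, and the difference was -4.75 ± 0.18 (limma adjusted p = 2.15e-08). Parp12, an interferon-induced ADP-ribosyltransferase, fell by 1.67 in MEFs and rose by 1.75 in P19 cells, a difference of -3.42 ± 0.31. Cpne8, a copine, and Gstt3, a glutathione transferase, had differences of -3.54 ± 0.22 and -3.46 ± 0.29, with P19 rises of 0.89 and 1.39.

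With all 12 arrays, 52 genes rose with MyoD in P19 cells, had no called effect in MEFs and had a lower difference. With 11 arrays there were 193, of which 33 were among the 52. The largest among those named was Cbln4, a secreted synapse organiser, at 4.03, 3.90 and 3.93 in MEFs with MyoD, against 4.17, 4.11 and 4.02 in untransduced MEFs. P19 readings of Cbln4 were 7.81, 7.34 and 7.64 with MyoD, against 4.59, 4.28 and 4.43 without. It stayed below the lower quartile of all values in MEFs and lay above their median in all P19 arrays with MyoD, a difference of -3.31 ± 0.19 (limma adjusted p = 6.37e-07). Tcim, Shc4, an adaptor of receptor tyrosine kinases, and Anxa4, an annexin, had differences of -3.25 ± 0.59, -2.64 ± 0.38 and -2.57 ± 0.56. For Foxd4, a forkhead factor, and Lurap1l they were -2.39 ± 0.32 and -2.15 ± 0.42. Against the P19 controls of batch 3 the Foxd4 difference was -0.779 and was not called (limma adjusted p = 0.23). P19 control replicate 2 read lowest of its group for Cbln4, Tcim, Shc4, Anxa4, Foxd4 and Lurap1l. Without that array their differences were -3.23, -2.58, -2.26, -1.93, -2.14 and -1.69. Tcim, Shc4 and Anxa4 were then called fallen in MEFs, by 1.07, 0.31 and 0.62, and Lurap1l risen by 0.21.

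With all 12 arrays, 28 genes with a higher difference fell in P19 cells without a call in MEFs, and with 11 arrays 281 did, 18 of them among the 28. The 28 included patterning genes. Bmp4, a signal of early mesoderm, read 5.88, 5.98 and 6.18 in MEFs with MyoD, against 5.63, 5.85 and 5.78 in untransduced MEFs. P19 readings of Bmp4 were 6.90, 6.99 and 6.95 with MyoD, against 8.34, 8.34 and 8.64 without. The P19 groups did not overlap, and the difference was 1.75 ± 0.18 (limma adjusted p = 4.81e-05). Gsc, a homeobox factor of the organiser, had 1.78 ± 0.34, Krt19, an epithelial keratin, 1.54 ± 0.19, and Car2, a carbonic anhydrase, 1.53 ± 0.27. Cav1, the caveolae protein, and Cyp26a1, which breaks down retinoic acid, had 1.47 ± 0.35 and 1.30 ± 0.15. Against the P19 controls of batch 3, the differences of Bmp4, Krt19, Cav1 and Cyp26a1 were 0.805, 0.888, 1.142 and 0.632 and were not called (adjusted p = 0.158, 0.142, 0.273 and 0.088). With 11 arrays Bmp4 and Car2 were called risen in MEFs, by 0.26 and 0.48, and Krt19 and Cav1 fallen there, by 0.27 and 0.42. Cxcr4, a chemokine receptor, had no called difference (-1.27, adjusted p = 0.293).

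A set of 94 genes rose in both cells, which is 6.21% of the genes that rose in MEFs and 49.5% of those that rose in P19 cells, and 35 fell in both. With 11 arrays 442 rose and 610 fell in both, among them all 94 and all 35. The rise was larger in MEFs for 73 of the 94, with medians of 2.83 in MEFs and 1.52 in P19 cells, and the difference was called for 61 of them, 57 higher and 4 lower. Of all genes, 8.32% rose in MEFs and 1.04% in P19 cells. The MEF and P19 comparisons share no arrays, but they share an estimate of the spread per gene, so their calls are not independent. The 8 responses closest to equal, by the bound of the 95% interval, were small. Pbxip1 and Adgre5 had the largest effects of these, though others, such as Ninj1 (interval -0.28 to 0.29), had tighter bounds. Pbxip1, a nuclear receptor and PBX-interacting protein, rose by 1.24 and 1.33, with a difference of -0.09 and an interval of -0.44 to 0.25. Adgre5, the adhesion receptor CD97, rose by 1.26 and 1.34, with a difference of -0.08 and an interval of -0.41 to 0.26.

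Some muscle regulators were also close. Rbm20, a splicing factor of titin, rose by 1.90 in MEFs and 1.99 in P19 cells, and its difference of -0.09 had an interval of -1.0 to 0.82 that includes sizeable inequality either way. Without P19 control replicate 2 the Rbm20 difference turned to 0.346 and was not called (limma adjusted p = 0.0592). Mef2d rose by 1.55 and 1.28, with a difference of 0.27 (limma adjusted p = 0.621) that was 0.64 and called without P19 control replicate 2 (adjusted p = 4.32e-05). Both were singled out after their values were seen.

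**Figure D5:**
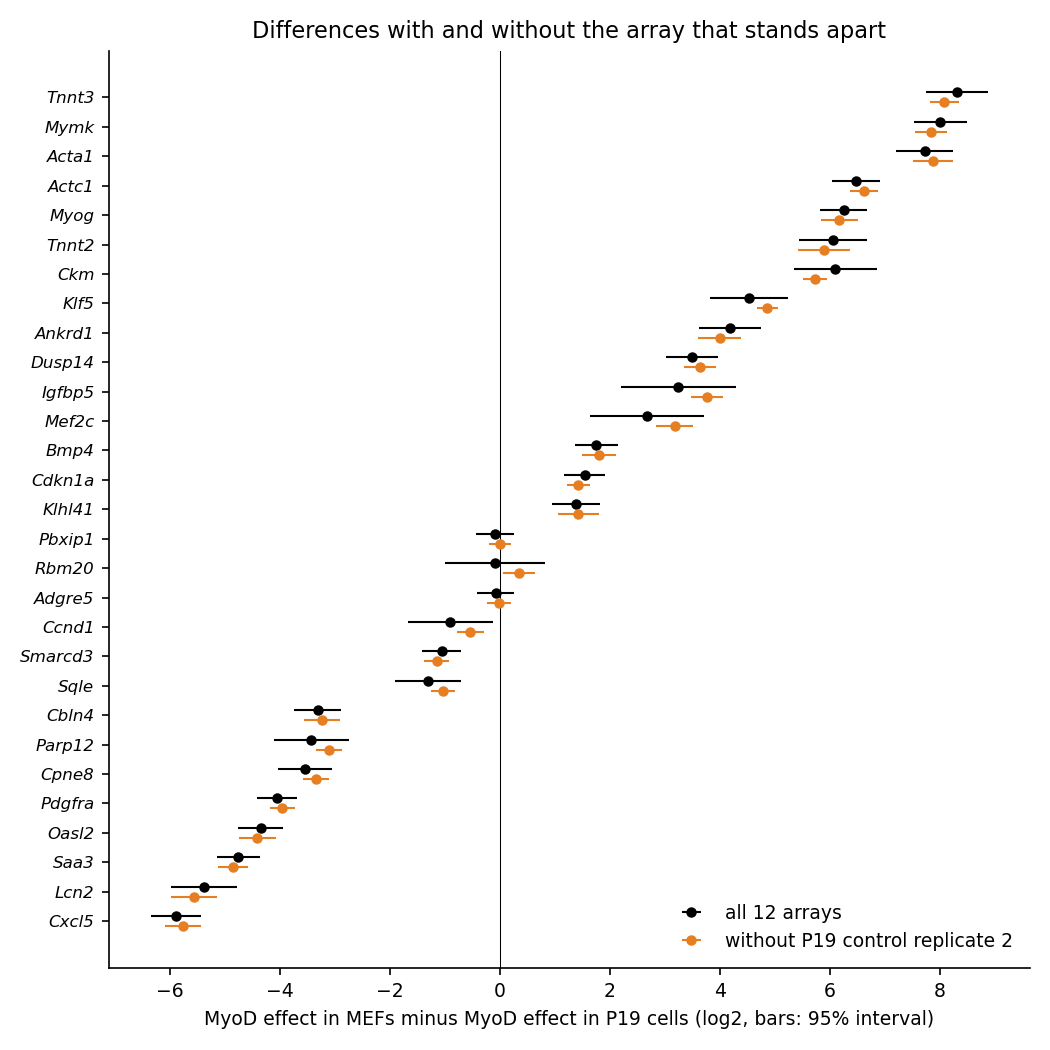
The difference between the MyoD effects (log2, bars are 95% intervals) is shown for 29 named genes with all 12 arrays in black and without P19 control replicate 2 in orange. All 29 intervals are narrower without that array, and the points of Rbm20 and Pbxip1 move across 0.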

How the data were processed

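Expression was measured on Affymetrix mouse arrays in 24 samples. The values are log2 signals as deposited by the authors. The submitters' processing notes name limma, while the sources used here do not state how signals were summarised and normalized. Of 45101 probe sets, 64 controls, 9160 without a symbol and 932 with several were set aside. The other 34945 stand for 18193 genes, and where a gene had several, the one of highest mean signal in the series was taken. Symbols came from the platform annotation, and 34741 probe sets matched RefSeq by Entrez number.

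A mean per group was fitted to the 12 arrays of batch 1 by limma (version 3.58.1, run in R version 4.3.3), leaving 8 residual degrees of freedom, or 7 without P19 control replicate 2. All groups share an estimate of the spread per gene. Tests are moderated and two-sided, with Benjamini-Hochberg adjustment over all genes, and a call is an adjusted p under 0.05. Values after ± are standard errors and intervals are 95%. The fit was tested on simulated data. No filter on dim genes was used. Tables and plots were made with Python 3.11.15.

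The members and the 32 gene lists were chosen with earlier results of these data known. Genes named are Myod1, Tnnt3, Mymk and Acta1, the 10 largest called differences each way with separated groups and a signal above the median, up to 4 called genes of each list, the 6 largest each among genes called opposite ways, risen in P19 cells only or fallen there only, the 8 closest to equal in both, and a fixed set of regulators and muscle genes. Clone and predicted-gene symbols were left out of the sets picked by size or by closeness to equal, other than those from the lists. Of the genes named not all are described, and others are said to be singled out after their values were seen. Named genes with a call had 129 other probe sets, of which 116 gave a difference of the same sign and 13 the opposite one. These counts compare sign and not size. Some differences of the same sign were far smaller, such as 0.156 for Ckm and 0.162 for Mb, against 6.10 and 4.69. Others were as large, such as 7.34 for Chrng against 6.23. Alternatives covered each array left out in turn, all 24 arrays, other normalizations, probe set choices, a filter, array weights, a replicate block and other P19 controls.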

Additional observations from a re-analysis of the deposited data

Results flagged for a closer look

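The results listed here either are counts of genes whose MyoD effect differed between MEFs and P19 cells by the test of the difference itself, or single genes that moved in opposite ways or in P19 cells only, by the calls with all 12 arrays. At a limma adjusted p under 0.05, 878 genes had a higher difference and 1658 a lower one.

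Genes called in opposite ways in the cells were Saa3 with a difference of -4.75, Ankrd1 with 4.17, Cpne8 with -3.54, Dusp14 with 3.48, Gstt3 with -3.46 and Parp12 with -3.42. Genes that rose in P19 cells without a call in MEFs were Cbln4 with a difference of -3.31, Tcim with -3.25, Shc4 with -2.64, Anxa4 with -2.57, Foxd4 with -2.39 and Lurap1l with -2.15. Genes that fell in P19 cells without a call in MEFs were Gsc with a difference of 1.78, Bmp4 with 1.75, Krt19 with 1.54, Car2 with 1.53, Cav1 with 1.47 and Cyp26a1 with 1.30. Without P19 control replicate 2, Tcim, Shc4, Anxa4, Krt19 and Cav1 were also called fallen in MEFs, and Lurap1l, Bmp4 and Car2 risen there. Against the P19 controls of batch 3, the differences of Foxd4, Bmp4, Krt19, Cav1 and Cyp26a1 were not called.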

How the results depend on the processing

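Without P19 control replicate 2 there were 3659 higher and 3945 lower differences, 4139 risen and 4817 fallen genes in MEFs, and 973 and 1240 in P19 cells, and with a replicate block as well 3655 and 3965, 4145 and 4834, and 899 and 1124. Estimated array weights gave 5055 and 5077, 4663 and 5268, and 3151 and 3943, but their estimation stopped before convergence. All 24 arrays gave 2677 lower differences and 370 genes risen in P19 cells. Renewed quantile normalization gave 2082 higher differences, 2657 risen genes in MEFs, and 357 risen and 334 fallen in P19 cells. The P19 controls of batch 3 gave 1722 higher differences and 934 risen and 1142 fallen genes in P19 cells. Over all arrays left out in turn, higher differences ran from 685 to 3659, lower ones from 1151 to 3945, MEF rises from 1152 to 4139, MEF falls from 1545 to 4817, P19 rises from 99 to 973 and P19 falls from 36 to 1240. Leaving out P19 MyoD replicate 1, 2 or 3 gave 99, 107 and 118 P19 rises and 36, 37 and 37 falls. Higher differences were 34.6% of calls, 48.1% without P19 control replicate 2, 47.3% after quantile normalization, 49.9% with weights and 45.8% with the batch 3 controls.

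Of the 2536 calls, 1 turned direction without probe sets of several transcripts and 3 with the batch 3 controls, and 0 under the other alternatives. Calls were also lost without turning. Leaving out an array of either MEF group or of P19 cells with MyoD kept 1834 to 1941 of them. Leaving out P19 control replicate 1 or 3 kept 2391 and 2442, and the batch 3 controls kept 2144. Signs turned for genes without a call. Pbxip1 ran from -0.146 to 0.001 with arrays left out and was 0.155 after quantile normalization. Rbm20 ran from -0.329 to 0.346, and was 0.345 with the replicate block and without P19 control replicate 2 and 0.324 with the batch 3 controls. With weights it was 0.335 and was called (limma adjusted p = 0.0139). Myf5 ran from -0.428 to 0.115. Adgre5 was 0.031 with weights, 0.015 after a shift to the same median and 0.001 with the block and without P19 control replicate 2. Cav1 lost its call with all 24 arrays (1.471, limma adjusted p = 0.124). It also did so when replicate 1 of MEFs with MyoD or of P19 cells with MyoD was left out (adjusted p = 0.0505 and 0.0525). Cdon lost its call when MEF control replicate 1 or 2 was left out (adjusted p = 0.0569 and 0.0519). The same held for Cdon without replicate 2 of MEFs with MyoD (adjusted p = 0.0563). The cause was not tested. The replicate block with 12 arrays gave 802 higher and 1533 lower differences. Samples of the same number correlated in their deviations at -0.194 to 0.342 over 18 pairs (median 0.02). Samples of different numbers did so at -0.337 to 0.313 over 36 pairs (median -0.018). These are deviations from means of 3 arrays, which cannot decide whether samples of the same number were paired.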

Other observations

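Genes of the cell's basic machinery had mostly small differences, and most of the calls came only without P19 control replicate 2. Of 26 oxidative phosphorylation genes, 3 had a higher difference with 12 arrays and 24 with the 11 without that array, while 19 rose in MEFs and 0 in P19 cells with 12 arrays. Cyc1, the cytochrome c1 subunit, read 12.79, 12.82 and 12.76 in MEFs with MyoD, against 11.54, 11.63 and 11.59 in untransduced MEFs. P19 readings of Cyc1 were 12.47, 12.48 and 12.40 with MyoD, against 12.46, 11.77 and 12.49 without, and its difference was 0.99 ± 0.24 (limma adjusted p = 0.0171). Of 29 genes of G2 and M phase, 1 had a higher difference with 12 arrays and 23 with 11. In MEFs 10 of these genes rose with MyoD and 0 fell, or 24 and 0 with 11 arrays. Of 28 S phase genes, 4 had a higher difference and 0 a lower one, or 12 and 2 with 11 arrays. In MEFs 5 of the S phase genes rose and 0 fell, or 18 and 3 with 11 arrays. Rrm2, a subunit of ribonucleotide reductase and an S phase gene, rose by 2.20 in MEFs, with a difference of 1.75 ± 0.30. Of 25 glycolysis and hypoxia genes, 4 had a higher difference and 0 a lower one (median 0.005), beside 4.83% and 9.11% of all genes. With 11 arrays the counts were 14 and 2, beside 20.1% and 21.7%. In MEFs 5 of them rose and 1 fell, or 9 and 9 with 11 arrays. Among the 4 were Egln3, an oxygen-sensing hydroxylase, and Hk2, a hexokinase, with differences of 2.98 ± 0.54 and 1.52 ± 0.22.

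Several genes known from other lineages also differed. Klf5, a factor of pluripotent and epithelial cells, read 11.60, 11.55 and 11.55 in MEFs with MyoD, against 7.36, 7.41 and 7.47 in untransduced MEFs. P19 readings of Klf5 were 8.14, 8.05 and 8.04 with MyoD, against 8.71, 7.78 and 8.87 without, and the difference was 4.53 ± 0.32 (limma adjusted p = 2.92e-06). With 11 arrays Klf5 was called fallen in P19 cells, by 0.71 (adjusted p = 1.56e-05). Its other probe sets gave smaller differences of 0.26 and 1.56. Of the 36 genes of the pluripotency list, 2 had a higher difference and 0 a lower one, or 15 and 4 with 11 arrays. In P19 cells 0 of them fell with 12 arrays and 15 with 11, beside 0.495% and 6.82% of all genes. Nes, the intermediate filament nestin of progenitors in nerve and muscle, had a difference of 3.53 ± 0.18, and Ebf1, a factor of B cells and mesenchyme, one of -2.96 ± 0.19. Of 60 neural genes, 5 had a higher and 5 a lower difference, beside 4.83% and 9.11% of all genes, and with 11 arrays 19 and 9, beside 20.1% and 21.7%. Smtn, the smoothelin of smooth muscle, had one of 2.08 ± 0.15, and 12 of 19 smooth muscle and myofibroblast genes were higher and 0 lower, or 16 and 0 with 11 arrays.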
